A study of Caenorhabditis elegans with 3 samples.

Results

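spe-44, elt-1 and spe-6 are genes of the sperm program of Caenorhabditis elegans, and another gene, ttbk-8.1, was described with them because of how the genes were looked up. The genes were taken by sequence name, as C25G4.4, W09C2.1 and Y38H8A.3, which are 3 of the 45836 gene entries of a read table over 12 libraries. They had been selected on their values under csr-1 RNAi against the control, so their values in that comparison are a description and carry no test. C25G4.4 is spe-44 in the WBcel235 annotation (the deposited tables call it gmeb-4), and W09C2.1 is elt-1 in both. Y38H8A.3, which had been listed as spe-6, is not spe-6: the annotation names it ttbk-8.1, and both the annotation and the deposited tables give spe-6 as Y66D12A.20. All 4 genes are therefore reported, and the name spe-6 is used for Y66D12A.20 alone. All 4 were among the 11345 genes that had at least 10 normalised reads in at least 4 libraries and were tested.

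Germ cells of the hermaphrodite make sperm in the last larval stage and then switch for life to oocytes. spe-44 encodes a DNA-binding protein with a SAND domain that acts in developing spermatocytes and is needed to switch on a large share of the sperm genes. elt-1 encodes a GATA transcription factor that is best known for specifying the epidermis in the embryo and that also binds control regions of sperm genes such as those of the major sperm protein. spe-6 encodes a kinase of the casein kinase 1 family that is needed for the assembly of major sperm protein into fibrous bodies and that holds spermatids back from activation until the right time. ttbk-8.1 is named after the tau tubulin kinases, a branch of the same kinase superfamily that is large in this worm.

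The RNA came from gonads of young adult hermaphrodites of the strain N2, the wild type, and its poly(A) fraction was sequenced. All were progeny (F1) of animals fed from the L1 larval stage at 24 °C with bacteria that make double-stranded RNA, and the labels give no difference between groups but the RNAi. The control was the empty plasmid L4440 in HT115 bacteria, a second group received a combined RNAi against P granule components (after Updike et al.), and the remaining group received csr-1 RNAi from the Ahringer library. There were 4 libraries per group, named orig, 1, 2 and 3, which the submitters call biological replicates, each pooled from 400 to 500 germlines. csr-1 encodes an Argonaute protein, which carries small RNAs, and P granules are condensates on the outside of germ cell nuclei. The title of the series names suppression of sperm transcription by both as its subject. RNAi lowers a transcript and does not remove the gene, and a gonad, here cut at its bend, holds somatic sheath cells beside its germ cells.

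The libraries held 18.4 to 31.9 M (megareads) in genes. The csr-1 transcript stood at 2450 to 6020 normalised reads under csr-1 RNAi against 21800 to 25500 in the control. It was also below every control under P granule RNAi (14400 to 16900 reads, a ratio of 0.659, limma adjusted p = 0.317). Of the P granule genes, pgl-1, pgl-3 and glh-4 were lower in all 4 P granule RNAi libraries than in any control, while glh-1 (16200 to 18700 reads against 18100 to 29600) overlapped. Under csr-1 RNAi glh-1 and glh-4 were above every control, at ratios of 2.56 and 2.33. All 12 germline and all 22 oocyte genes of the marker lists passed the filter. So did 12 of 14 intestine and 11 of 12 muscle genes, so passing the filter does not single out the gonad. The mean log2 level was 12.27 to 13.35 for the germline list and 14.05 to 14.65 for the oocyte list. It was 6.44 to 10.04 for the intestine list and 7.85 to 9.27 for the muscle list. Where the intestine and muscle transcripts came from was not tested. The germline list spanned 12.27 to 12.48 under P granule RNAi, below the 13.01 to 13.35 of the control, and 12.67 to 13.26 under csr-1 RNAi. Under P granule RNAi all 12 of its genes, pgl-1 and pgl-3 among them, had negative log2 fold changes. Of these 7 had an unadjusted p under 0.05 by limma, beside 13.8% of all tested genes. The mean log2 level of 84 tested sperm genes differed widely between libraries of the same group. It was 6.48, 6.09, 4.83 and 5.03 in the control libraries orig, 1, 2 and 3, then 7.42, 6.10, 8.25 and 7.02 under P granule RNAi and 4.60, 6.09, 8.06 and 9.03 under csr-1 RNAi. Library orig of the csr-1 group thus lay below every control, and libraries 2 and 3 of that group above them.

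spe-44 was the steadiest of the 4 genes in the control and its level was a little lower in both RNAi groups. Its normalised reads were 845, 852, 857 and 823 in the control libraries, here and below in the order orig, 1, 2 and 3. They were 771, 840, 745 and 697 under P granule RNAi and 697, 644, 623 and 754 under csr-1 RNAi. Each of the 4 csr-1 RNAi libraries was under the lowest control, whereas in the P granule group 3 of 4 were and library 1 fell among them. The means were 844 ± 15.1, 763 ± 59.6 and 679 ± 58.5 (SD, n = 4 each). In a pooled tissue, fewer cells of a type and less RNA per cell cannot be told apart.

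For P granule RNAi the log2 fold change of spe-44 was −0.15 (SE 0.11, 95% interval −0.39 to 0.10), and spe-44 was not called (limma adjusted p = 0.494). The interval excludes a 2-fold change in either direction. For csr-1 RNAi the ratio of means was 0.805 and the log2 fold change −0.32, values that belong to the comparison used to select the genes. Of all 11345 tested genes, 58.8% had a larger absolute log2 fold change than spe-44 in that comparison. The csr-1 and P granule RNAi groups overlapped in spe-44, so the levels run from the control down to csr-1 RNAi with the neighbours in that order not separated.

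elt-1 had 154, 148, 186 and 190 reads in the control libraries. Under P granule RNAi it had 184, 136, 148 and 138 reads. Under csr-1 RNAi it had 20.4, 31.1, 70.6 and 94.9 reads. Every csr-1 RNAi library was below every control and every P granule RNAi library, and the 4 csr-1 RNAi libraries were also far apart from each other. The means were 169 ± 21.7, 151 ± 22.2 and 54.3 ± 34.7 reads (SD, n = 4). On the log2 scale the libraries of the csr-1 RNAi group had an SD of 1.004, against 0.19 for the control.

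For P granule RNAi the log2 fold change of elt-1 was −0.16 (SE 0.40, 95% interval −1.03 to 0.70, limma adjusted p = 0.847). The SE uses 1 spread for all 3 groups, so the csr-1 RNAi libraries widen this interval. Their log2 SD was 1.004, against 0.19 for the control and 0.20 for P granule RNAi. The lower end, about 2-fold down, is thus not a measure of the 2 compared groups alone. For csr-1 RNAi the ratio of means was 0.321 and the log2 fold change −1.86, again as a description. Only 1.01% of tested genes had a lower value there.

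spe-6 was the gene whose csr-1 RNAi libraries stood farthest from the control and lay closest together. Its reads were 207, 189, 260 and 160 in the control libraries. They were 305, 283, 315 and 259 under P granule RNAi and 851, 773, 745 and 744 under csr-1 RNAi. All csr-1 RNAi libraries were above all others, and in the P granule group 3 of 4 were above every control, with library 3 just under the highest one. The means were 204 ± 41.9, 291 ± 25.2 and 778 ± 50.2 reads (SD, n = 4). In csr-1 library orig, where the sperm genes had their lowest mean level, spe-6 had its highest value.

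For P granule RNAi the log2 fold change of spe-6 was 0.52 (SE 0.16, 95% interval 0.17 to 0.87). The gene was not called (limma adjusted p = 0.299), although its interval does not reach 0. For csr-1 RNAi the ratio of means was 3.81 and the log2 fold change 1.95, and 97.4% of tested genes had a lower value. In the authors' deposited table the fold for P granule RNAi was 1.42 with an adjusted p of 1.

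ttbk-8.1 varied more between libraries of a group than any of the other 3 genes. Its reads were 126, 50.2, 15 and 18.8 in the control libraries. They were 251, 44.4, 275 and 106 under P granule RNAi and 23.3, 47.3, 248 and 512 under csr-1 RNAi. All 3 groups overlapped: 2 of 4 libraries of each RNAi group were above every control, and csr-1 libraries orig and 1 lay within the control range. The means were 52.5 ± 51.5, 169 ± 112 and 208 ± 227 reads (SD, n = 4).

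For P granule RNAi the log2 fold change of ttbk-8.1 was 1.84 (SE 0.99, 95% interval −0.32 to 4.00, limma adjusted p = 0.388). The authors' deposited table gives a fold of 3.22 with an adjusted p of 0.110. For csr-1 RNAi the ratio of means was 3.96 and the log2 fold change 1.55 (SE 0.99). This value is close to that of spe-6, but without csr-1 library 3 it was 0.81 and without csr-1 library orig 2.28. The higher mean under this sequence name thus came from csr-1 libraries 2 and 3, while Y66D12A.20 (spe-6) was above every control in all 4.

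**Figure D1:**
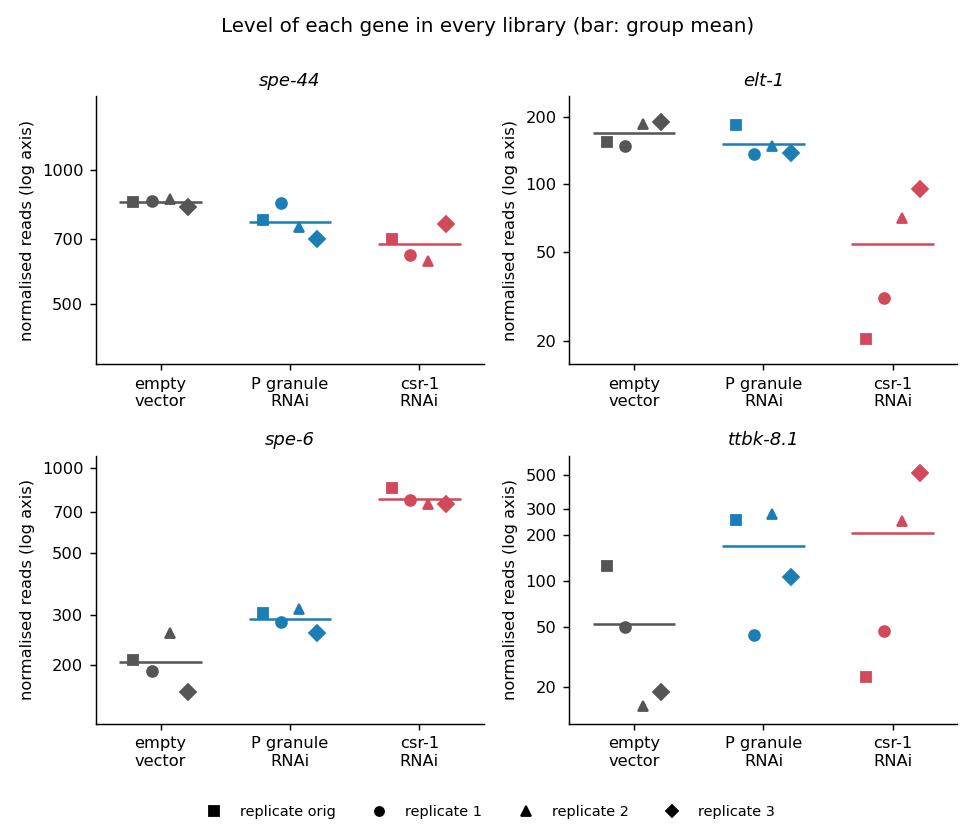
Normalised reads (log axis) of spe-44, elt-1, spe-6 and ttbk-8.1 in the 12 libraries, one symbol per library and a bar at the group mean. All csr-1 RNAi points are above all controls for spe-6 (744 to 851 reads) and below them for elt-1 (20.4 to 94.9 reads), while the ttbk-8.1 points (23.3 to 512 reads) overlap the controls.

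Over the whole table P granule RNAi gave few calls, and none of the 4 genes was among them. The 7 called genes make 0.0617% of those tested (limma), and without csr-1 library 3 there were 200. Groups that did not overlap were found for 12.2% of tested genes and for none of the 4. None of the 4 was called by limma, edgeR or DESeq2. At an unadjusted p under 0.05 limma and edgeR had 1 of the 4 (spe-6) and DESeq2 had 2, where 13.8% of all tested genes passed by limma. The exact two-sided permutation test over the libraries gave p = 0.0571 for spe-44 and spe-6, 0.143 for ttbk-8.1 and 0.2 for elt-1, where the smallest p that 70 arrangements allow is 0.0286. For csr-1 RNAi 14.8% of tested genes were called (6.98% higher and 7.8% lower), and 21.6% had groups that did not overlap (9.97% higher and 11.7% lower). The 1677 calls depended on single libraries: there were 1064 without control library 1, 931 without control library 2, 1036 without csr-1 library 1 and 1021 without csr-1 library 2. spe-44, elt-1 and spe-6 were among the genes without overlap, and nothing is read from this since the genes were selected on that comparison. The comparisons share their control libraries.

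**Figure D2:**
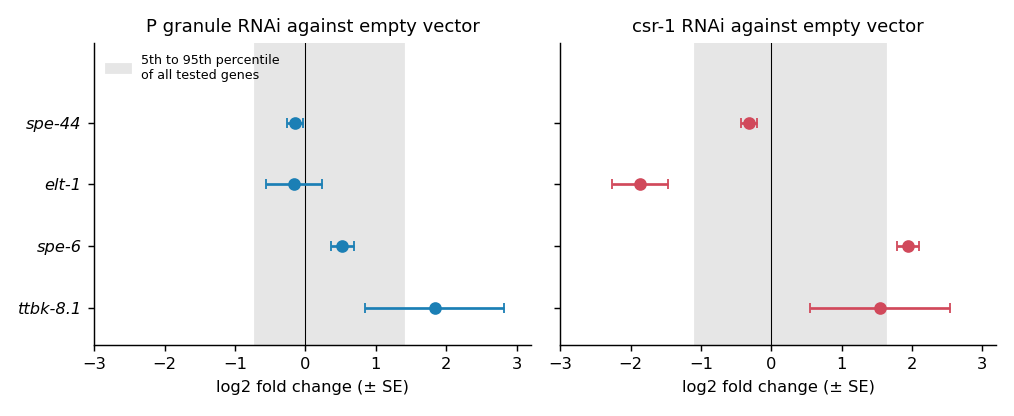
Log2 fold change (± SE) of the 4 genes for each RNAi group against the empty vector, with the grey band spanning the 5th to 95th percentile of all tested genes (−0.72 to 1.41 for P granule RNAi, −1.08 to 1.64 for csr-1 RNAi). ttbk-8.1 lies outside the band for P granule RNAi, and elt-1 and spe-6 lie outside it for csr-1 RNAi.

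The genes were next compared within groups, where group means were taken out so that the differences between groups used to select them played no part. Of 18 relations computed among the 4 genes and with the mean level of sperm, epidermal and oocyte genes, 1 passed, and the 12 that are not given below had adjusted p-values of 0.143 to 0.988 by permutation. The deviations of ttbk-8.1 followed those of the 84 sperm genes across the 12 libraries (Pearson's r = 0.96, Spearman's rho = 0.97, permutation within groups p = 7.2e-05 for each, adjusted p = 0.0013). That p is the smallest the 13824 arrangements can give. Leaving out the 2 libraries in which ttbk-8.1 itself deviated farthest from its median kept r at 0.96. In the 18 relations the 2 farthest libraries were chosen in this way for each gene, not by the sperm level. All values of a library share its depth and its tissue.

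spe-6 and spe-44 did not show such a relation. For spe-6 r was −0.17 (permutation p = 0.508, adjusted p = 0.704; rho −0.25, permutation p = 0.421). Leaving out its 2 farthest libraries, control libraries 2 and 3, gave −0.26. For spe-44 r was 0.01 (permutation p = 0.988, adjusted p = 0.988) and rho −0.15 (permutation p = 0.679). Leaving out its 2 farthest libraries, csr-1 library 3 and P granule library 3, gave −0.48. These p-values do not show that the genes are unrelated to the sperm level.

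elt-1 had r = 0.80 with the sperm genes (permutation p = 0.0825, adjusted p = 0.371; rho 0.66, permutation p = 0.169). It dropped to 0.40 when the 2 farthest libraries were left out, so the relation rested on them. It also came mainly from the csr-1 RNAi group, with r = 0.997 there, 0.41 for P granule RNAi and −0.93 for the control. Among the control libraries, orig and 1 had the higher sperm levels and the lower elt-1 reads. In the csr-1 RNAi group library orig was lowest and library 3 highest in elt-1, in ttbk-8.1 and in the sperm level alike. With the 107 tested epidermal genes r was 0.55 for elt-1 (permutation p = 0.308, adjusted p = 0.560; rho 0.37, permutation p = 0.351; 0.09 without the 2 farthest). For the epidermal genes the csr-1 RNAi group alone ran in this direction. Control libraries orig and 1 were high in epidermal genes and low in elt-1, and P granule library orig had the lowest epidermal level and the highest elt-1 of its group. For ttbk-8.1 and the epidermal genes r was 0.78 (permutation p = 0.0252, adjusted p = 0.151; rho 0.81, permutation p = 0.0182; 0.65 without the 2 farthest).

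**Figure D3:**
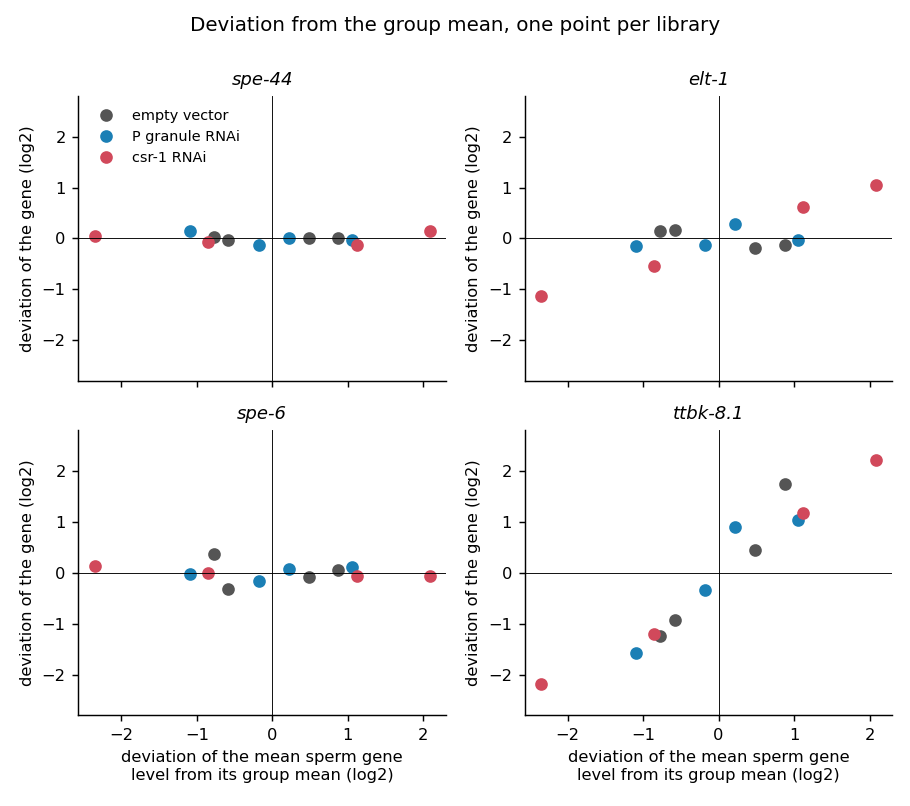
Deviation of each gene from its group mean (vertical, log2) against the deviation of the mean level of 84 sperm genes (horizontal, log2), one point per library and colour per group. The ttbk-8.1 points follow the sperm level (r = 0.96), the spe-6 and spe-44 points stay within 0.37 of 0 at every sperm level, and elt-1 varies mainly in the csr-1 RNAi libraries.

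The sperm genes themselves had positive median log2 fold changes in both RNAi groups, yet few passed the test. The lists hold the genes for major sperm protein, small sperm proteins, fibrous body assembly, sperm activation and fertilization. Under P granule RNAi 0 of 84 were called by limma, edgeR or DESeq2, with a median log2 fold change of 1.83 against 0.03 over all tested genes. At an unadjusted p under 0.05 limma had 21 of 84, where 13.8% of all tested genes passed. Under csr-1 RNAi 2 of 84 rose and 0 fell, with a median of 1.56 against 0.02 over all genes. Of all tested genes limma called 6.98% higher and 7.8% lower. DESeq2 called 43 of the sperm genes and edgeR 6, beside 2456 and 1593 over all tested genes. limma called 41 once csr-1 library orig was left out, beside 2110 over all genes. With that library kept, 12 passed at an unadjusted p under 0.05 (limma). Over all tested genes at least 14.8% passed, the share called after adjustment, so no excess is read from these 12. Copies of the major sperm protein genes are nearly identical, and reads marked as not unique stayed out, so the level of each copy is uncertain.

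The called sperm genes were spe-15 and spe-47. spe-15, which encodes a myosin VI needed to sort components during spermatid budding, had 552, 475, 476 and 311 reads in the control libraries, and 1550, 897, 1300 and 1660 in those of csr-1 RNAi. Its log2 fold change was 1.57 (SE 0.28, limma adjusted p = 0.0036), and all csr-1 RNAi libraries were above all controls, library orig included. spe-47, which acts in sperm activation, had 37.4, 18.8, 18 and 16.8 reads against 69.1, 38.6, 59.3 and 146. Its log2 fold change was 1.64 (SE 0.49, limma adjusted p = 0.0417), and the call was lost without any 1 of 6 single libraries, namely csr-1 library orig, 2 or 3 or control library 1, 2 or 3.

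By list, the 30 tested major sperm protein genes had a median log2 fold change of 2.04 under P granule RNAi and 1.46 under csr-1 RNAi, and 0 were called in each by limma (4 and 1 at an unadjusted p under 0.05; 0 and 15 by DESeq2). The 25 small sperm protein genes had medians of 2.005 and 1.77, again with 0 called by limma (15 and 4 at an unadjusted p under 0.05; 0 and 21 by DESeq2). Without csr-1 library orig, 15 of the major sperm protein genes and 20 of the small sperm protein genes were called for csr-1 RNAi. The 9 fibrous body genes had medians of 1.13 and 1.39 and 1 call under csr-1 RNAi (spe-15; 4 by DESeq2, 2 by edgeR and 2 by limma without csr-1 library orig). The 13 activation genes had medians of 1.51 and 1.48 and 1 call under csr-1 RNAi (spe-47; 2 by DESeq2, 1 by edgeR). That count was 3 without csr-1 library orig, 2 without control library orig and 0 without any 1 of csr-1 libraries 2 and 3 and control libraries 1, 2 and 3. The 7 fertilization genes had medians of 0.35 and 1.08 and 0 calls by limma (0 and 2 at an unadjusted p under 0.05, and 0 and 1 by DESeq2). Over all tested genes, 13.8% had an unadjusted p under 0.05 by limma for P granule RNAi. For csr-1 RNAi limma called 6.98% higher and 7.8% lower, and DESeq2 called 2456 of 11345. The unadjusted share for csr-1 RNAi was not computed, and is at least the 14.8% that limma called in either direction.

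The genes that set germ cell fate split under csr-1 RNAi, with 3 of 15 higher and 5 lower and a list median of −0.49. Of all tested genes 6.98% were called higher and 7.8% lower, and without control library 2 the lower count of the list was 3. fog-3, a Tob family protein needed for sperm fate, averaged 30.6 reads in the control libraries and 291.5 in those of csr-1 RNAi (log2 fold change 3.23, SE 0.34, limma adjusted p = 0.000169). her-1, a secreted signal for male fate, rose by 2.55 (SE 0.43, adjusted p = 0.00249) from a mean of 5.15 reads, and fog-2, an F-box protein for the hermaphrodite's sperm, rose by 0.51 (adjusted p = 0.0132). Among those that fell were daz-1, which is needed for oogenesis (−0.82, adjusted p = 0.00228), and cpb-1, which is needed for spermatogenesis (−0.82, adjusted p = 0.0141, and 0.0513 without control library 2). gld-1, nos-3 and fem-3 also fell, and these 3 and fog-2 are named after their values were seen. Under P granule RNAi 0 of the 15 were called (limma; 0 by edgeR and DESeq2, 2 at an unadjusted p under 0.05), with a median of −0.17.

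The relatives of each gene were listed by family. Of 10 other GATA factor genes 4 were abundant enough to test and 0 were called in either comparison by limma, edgeR or DESeq2. At an unadjusted p under 0.05 limma had 0 for P granule RNAi and 1 for csr-1 RNAi. Of all tested genes 13.8% and at least 14.8% passed that threshold. elt-6, which like its neighbour egl-18 acts in the seam cells of the epidermis, had a log2 fold change of −0.92 under csr-1 RNAi (SE 0.36, limma adjusted p = 0.109). egl-18 had −0.40 (SE 0.20, adjusted p = 0.211), elt-3 0.01 and end-3 0.13. The intestinal factors elt-2 (a mean of 7.27 reads in the control) and elt-7 (6.67 reads) were under the filter. Of the genes with a SAND domain beside spe-44, gmeb-1 and gmeb-2 were tested and not called, with log2 fold changes of 0.44 and 0.60 for csr-1 RNAi.

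Among 181 epidermal genes, mostly cuticle collagens, 107 were tested, 52 were under 10 reads in every library and 8 were at 0 throughout. Their mean log2 level spanned 4.71 to 6.79 among the control libraries, 4.93 to 6.74 among those of P granule RNAi and 4.01 to 6.88 among those of csr-1 RNAi, so the groups overlapped. Under csr-1 RNAi 1 gene rose and 3 fell, with a median of −0.01, shares below the 6.98% and 7.8% over all tested genes. The 1 higher became 0 without csr-1 library 1, 2 or 3, 3 without control library orig and 4 with DESeq2, and the 3 lower became 1 with a filter of 50 reads. Under P granule RNAi 0 were called by limma, with a median of 0.42 (5 at an unadjusted p under 0.05; 0 by edgeR and DESeq2). nhr-25, a nuclear receptor of epidermal development, fell by 1.84 (limma adjusted p = 0.0095). blmp-1, a zinc finger regulator of epidermal genes, fell by 1.16 (adjusted p = 0.0484), a call lost in 13 of 23 alternative analyses. The cuticle collagen dpy-10 fell by 1.58 and the collagen col-83 rose by 2.44. Whether epidermal RNA had a part in the elt-1 values was not tested.

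**Figure D4:**
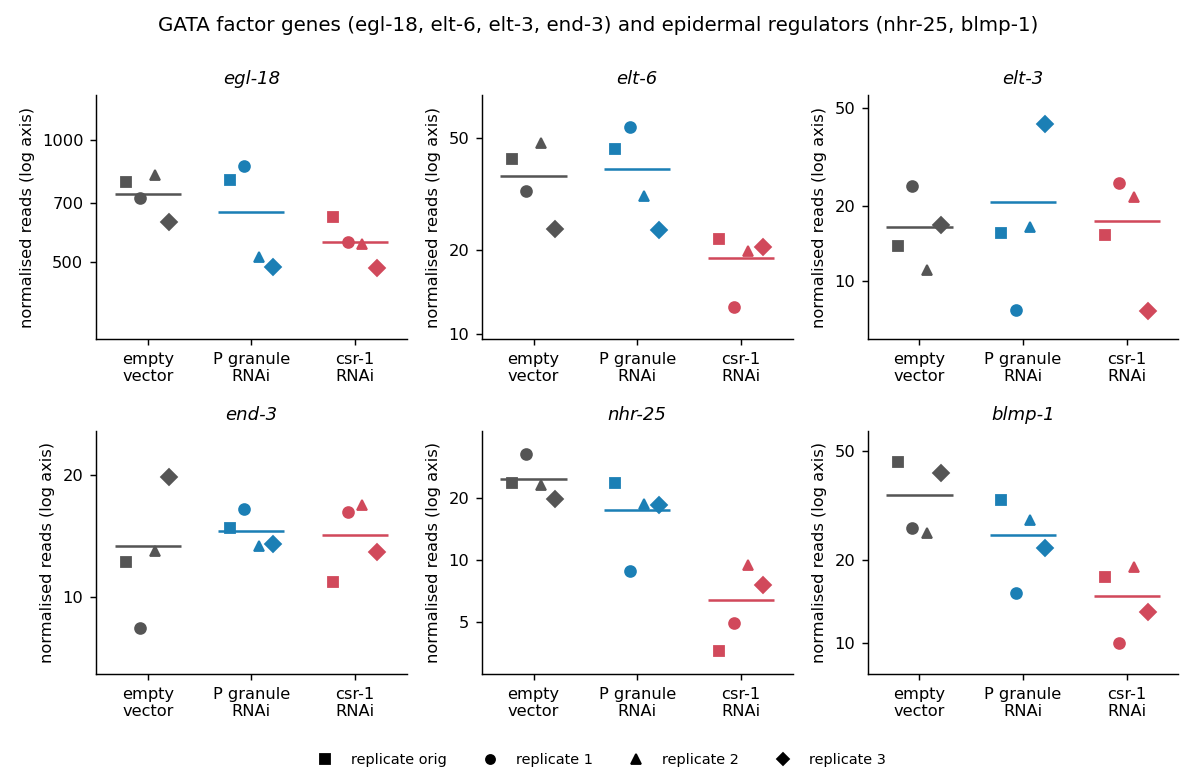
Normalised reads (log axis) of the 4 tested GATA factor genes other than elt-1 and of the epidermal regulators nhr-25 and blmp-1 in every library, with a bar at the group mean. nhr-25 and blmp-1 are lower on average under csr-1 RNAi (log2 fold changes −1.84 and −1.16), while elt-3 and end-3 show no separation of the groups.

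The kinase relatives of spe-6 fell into those with sperm-like spread and those without. Of 10 tested casein kinase 1 and tau tubulin kinase genes other than spe-6 and ttbk-8.1, 0 were called in either comparison by limma (0 for P granule RNAi and 1 for csr-1 RNAi at an unadjusted p under 0.05), and DESeq2 called 0 and 4. Over all tested genes DESeq2 called 80 and 2456. At an unadjusted p under 0.05 limma had 13.8% of all tested genes for P granule RNAi and at least 14.8% for csr-1 RNAi. Without csr-1 library orig limma called 3 of the kinase genes higher and 1 lower for csr-1 RNAi, beside 2110 calls over all genes. ttbk-8.2, the namesake of ttbk-8.1, averaged 126 reads in the control group, 431 with P granule RNAi and 741 with csr-1 RNAi. Where such relatives are close copies, reads marked as not unique stayed out, so the level of each is uncertain. kin-19 and csnk-1, kinases with broad roles, had log2 fold changes of −0.10 and −0.36 under csr-1 RNAi.

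In a family of 17 further relations, chosen after the data were seen, the deviations of ttbk-8.2 (r = 0.99), ttbk-2.1 (0.97), ttbk-2.2 (0.97), ttbk-4 (0.97) and ttbk-5 (0.91) followed the sperm level within groups (permutation, adjusted p of 0.000738 to 0.00384). Their rho was 0.90 to 0.99, and r without the 2 farthest libraries was 0.87 to 0.99. kin-20 went the other way (r = −0.48, permutation, adjusted p = 0.0432, and −0.42 without the 2 farthest). Its rho was −0.53 (permutation, adjusted p = 0.0335). csnk-1 and kin-19 had larger negative r, −0.67 and −0.57, but did not pass (permutation, adjusted p = 0.0738 for each). Without the 2 farthest these were −0.35 and −0.22. ttbk-3 (r = 0.48) and ttbk-7 (−0.41) did not pass either. Of these kinases spe-6 had all csr-1 RNAi libraries above all controls, kin-20 had all below, and the other tested ones overlapped the control. Over all tested genes 21.6% did not overlap there (9.97% higher and 11.7% lower), so nothing is read from this. The difference between the r of spe-6 and that of its relatives was not tested.

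**Figure D5:**
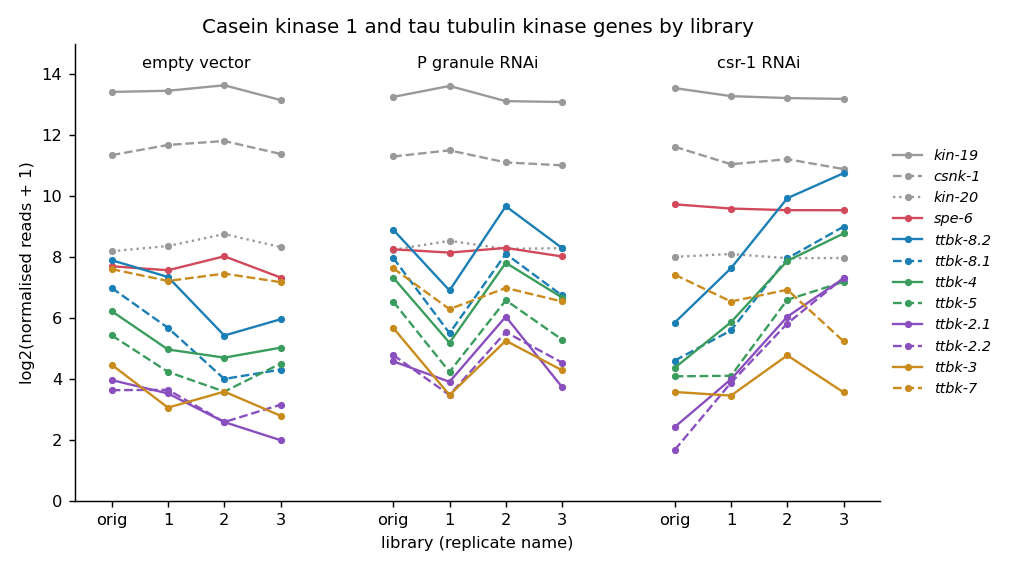
Log2(normalised reads + 1) of the casein kinase 1 and tau tubulin kinase genes by library; the lines join the libraries of a group for one gene and carry no order. ttbk-8.1, ttbk-8.2, ttbk-4, ttbk-5, ttbk-2.1 and ttbk-2.2 vary together, and spe-6 is level within the csr-1 RNAi group at 744 to 851 reads. kin-19 (8750 to 12800 reads) and csnk-1 (1900 to 3600 reads) are abundant.

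The genomic neighbours bear on how the reads were assigned, since the library kit does not mark strand. ttbk-8.1 on chromosome IV overlaps Y38H8A.4 on the opposite strand, and reads of the overlap cannot be told apart. Reads marked ambiguous (0.78% to 0.92% per library) stayed out of the gene values, and how many belong to this overlap is not known. Y38H8A.4 had 55.2, 20.9, 12 and 8.9 reads in the control libraries, then 80.4, 27.9, 127 and 49.3 with P granule RNAi and 11.6, 23.7, 133 and 286 with csr-1 RNAi. It stood high and low in the same libraries as ttbk-8.1, and its within-group r with the sperm level was 0.98 (rho 0.96; permutation, adjusted p = 0.000738; 0.96 without the 2 farthest libraries). spe-44 lies on chromosome IV between dpy-26 and smz-1. dpy-26, on the same strand, was below every control under P granule RNAi (ratio 0.623, limma adjusted p = 0.344) and overlapped the control under csr-1 RNAi. smz-1 is a sperm gene on the opposite strand, with 201, 202, 99 and 132 reads in the control libraries and 85.1, 214, 807 and 1530 in those of csr-1 RNAi. The within-group r of smz-1 with the sperm level was 0.99 (rho 0.99; permutation, adjusted p = 0.000738; 0.96 without the 2 farthest), beside 0.01 for spe-44. Of the genes beside spe-6, Y66D12A.19 on the same strand was above every control under csr-1 RNAi (ratio 1.25, limma adjusted p = 0.105), and Y66D12A.21 on the opposite strand was so under P granule RNAi (ratio 1.50, limma adjusted p = 0.322). The neighbours of elt-1 are aat-1, whose groups overlapped (10.6 to 36.7 reads), and W09C2.7, which was near 0. No overlapping gene was found for spe-6 on chromosome III, spe-44 or elt-1 in the annotation.

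The genes whose levels were most like each of the 4 were chosen as the tested genes with the highest Pearson's r over the 12 libraries. This r includes the differences between groups, so it partly restates the csr-1 RNAi comparison on which the genes were selected. For elt-1 the most alike were rhy-1 (r = 0.98, rho = 0.88), cdr-7 (0.97, 0.90), slc-17.7, T11G6.4 and arc-1, with 78 genes above 0.9. For spe-6 they were F13D12.10 (r = 0.98, rho = 0.94), C33B4.4 (0.98, 0.95), F13D12.5, F38E11.6 and Y45F3A.4, and 125 genes were above 0.9. These 5 had log2 fold changes of 1.67 to 4.18 under csr-1 RNAi. For spe-44 they were imb-2 (r = 0.94, rho = 0.97), ephx-1 (0.93, 0.89), M01E5.2, W01C8.5 and usp-39, with 8 genes above 0.9. For ttbk-8.1 they were F01D5.8 (r = 0.99, rho = 0.98), F58G1.3, kel-10, BE10.1 and F42A9.7, with 729 genes above 0.9.

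With the group means taken out, 781 genes were above 0.9 for ttbk-8.1, led by kel-10 (r = 0.998, rho = 0.99), and 14 for elt-1, led by D1014.2 (0.97, 0.97) and rhy-1 (0.96, 0.94). For spe-44 M01E5.2 alone was above 0.9 (0.91, 0.91), followed by arf-5, sams-4, Y41E3.8 and K03B4.2. For spe-6 no gene was, and C48D1.9 came first (0.90, 0.71, and 0.64 without the 2 farthest libraries). These values are the highest of 11345 and describe these libraries alone.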

How the data were processed

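The deposited table is named as raw counts but holds a normalised signal, reads that the authors divided by a size factor per library, as the values show. All 187378 values above 0 were whole multiples of 1 read within 0.01 reads (100%), so whole reads were recovered for alternatives. The authors also deposited a ratio (fold) of group means and p-values for each RNAi, per the file headers. Tools listed by the submitters' processing notes are HTSeq 0.5.4p3, DESeq 1.1.2.1, CASAVA, SAMtools 0.1.18 and TopHat2 2.0.8b, and the build is not given in the sources used here, so no coordinates are printed. Of 45836 entries, 97.21% matched WBcel235, and 5 that name no gene (2.04% to 2.76% not unique, 0.78% to 0.92% ambiguous) stayed out. Columns of values not used numbered 0.

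limma 3.58.1 (R 4.3.3, trend, robust) was fitted to log2(value + 1) in all 12 libraries with a mean per group. Each gene had 1 spread shared by the 3 groups, so a variable group widens the SE of both comparisons. Fold changes are on that scale, which understates changes of low genes. P-values were adjusted by Benjamini-Hochberg over 11345 genes, threshold 0.05. They measure only the spread between these libraries. edgeR 4.0.16 and DESeq2 1.42.0 on recovered reads, other filters and pseudocounts and each library left out were alternatives. The procedure was tested on simulated data. Within-group relations used permutation within groups. Libraries of a group differed by more than sampling noise (lowest chi-square 16.4 per degree of freedom). Same-numbered libraries did not pair by the correlation of their deviations, but the 3 libraries named orig had features in common. They held 29.8, 30.1 and 31.9 M reads in genes, against at most 26.2 M in the others. Their mean log2 level of the sheath list was 4.85, 4.42 and 4.44, against 5.83 to 6.58 in the others. What the name orig stands for is not given, and a batch was not tested.

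The genes and lists were chosen with earlier results of these data known. Named were the 4 genes, up to 4 called genes per list, 5 most alike genes per gene, neighbours and RNAi targets. The planned naming by protein similarity was not run. Of the other marker lists, under P granule RNAi 2 of 12 germline genes were called lower (pgl-1 and pgl-3) and 0 of 22 oocyte, 8 sheath, 12 intestine, 11 muscle and 8 neuron genes were called (limma, with 3, 0, 0, 0 and 0 at an unadjusted p under 0.05 and 0 by edgeR and DESeq2). Under csr-1 RNAi 3 of the 12 germline genes rose and 3 fell, 2 oocyte genes fell (cbd-1, lost without control library 1 or 2, and lin-41, lost in 15 of 24 alternatives), fos-1 of the sheath list fell (lost without control library 2 or the 3 orig libraries), and unc-31 of the neuron list rose. Of the intestine and muscle genes 0 were called there (limma, edgeR and DESeq2, with 0 at an unadjusted p under 0.05). Over all tested genes limma called 6.98% higher and 7.8% lower for csr-1 RNAi. Entries spe-7, spe-13, spe-16, spe-21, spe-50 and fer-14 were not matched.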

Additional observations from a re-analysis of the deposited data

Results flagged for a closer look

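The mean log2 level of the 22 oocyte genes was 14.26, 14.30, 14.56 and 14.29 in the control libraries orig, 1, 2 and 3. Library 2 stood apart, with a gap to the next library of 0.844 of the group's whole range, above Dixon's 95% critical value for 4 samples. It was the single such value in 63 groups of 4 examined, where chance gives about 1 in 20. The same library had the lowest sperm level of the control group.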

How the results depend on the processing

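All log2 fold changes of the 4 genes kept their direction in every alternative run, and the P granule values stayed on the same side of the threshold. With each library left out in turn, P granule RNAi gave −0.20 to −0.11 for spe-44, −0.26 to −0.11 for elt-1, 1.42 to 2.42 for ttbk-8.1 and 0.42 to 0.65 for spe-6 (limma adjusted p of 0.0986 to 0.638 for spe-6). Under csr-1 RNAi they were −0.37 to −0.28, −2.21 to −1.49, 0.81 to 2.28 and 1.84 to 2.07. The 7 genes called for P granule RNAi became 80 with DESeq2 and 4 without the 3 libraries named orig, and 6 to 200 with single libraries left out. The 1677 called for csr-1 RNAi ranged from 931 to 2110 with single libraries left out and were 2456 with DESeq2; the causes were not tested. The within-group relations that passed numbered 2 without the 3 orig libraries and 1 to 2 with single libraries left out, the second being ttbk-8.1 with the epidermal genes (r = 0.96, adjusted p = 0.0026, without P granule library orig). Libraries sharing a number did not consistently deviate together (correlations of −0.467 to 0.663). With a replicate block, 6 genes were called for P granule RNAi and 2082 for csr-1 RNAi. It gave 5 fate genes higher for csr-1 RNAi in place of 3. The counting error of elt-1 in the csr-1 libraries (25 to 88 reads) was 10.7% to 20% of its value, less than the spread between them.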
